A study of Homo sapiens with 4 samples.

Results

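The genes that carry cells from G1 into S phase and copy the DNA were described in ARP-1, an established human multiple myeloma cell line. They were taken by name from a list of 52 symbols, by a rule that uses no measured value, although the list was drawn up with earlier results of these data known. The list holds 15 genes of E2F and cyclin control, 11 of origin licensing, 21 of the replication fork and 5 of nucleotide and histone supply. Of the 52 genes, 49 had a row among the 15201 genes of the deposited table. CDKN1A, CDKN2C and E2F2 are not analysed here. All 49 passed the filter used for testing, a mean of at least 1 FPKM (fragments per kilobase, corrected for library size, so that long and short genes share a scale) over the 4 libraries, which kept 13411 genes.

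The libraries were made from mRNA of wild-type cells (WT, 2 replicates) and of a carfilzomib-resistant derivative (CfzR, 2 replicates), carfilzomib being a drug that blocks the proteasome irreversibly. The labels used here give no dose, no length of selection and no control line beyond WT. They do not say whether CfzR is 1 clone, whether the drug was present at harvest or whether the replicates are separate cultures.

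Entry into S phase is gated by the retinoblastoma protein RB1, which holds E2F transcription factors in check until cyclin-dependent kinases phosphorylate it. E2F then drives genes for the next steps. Origins are licensed in G1 by loading of the MCM helicase, fired by the kinases CDK2 and CDC7, and copied by polymerases held to the DNA by the PCNA clamp. Several regulators of this sequence, among them cyclin E, CDT1, geminin and the CDK inhibitor p27, are known to be degraded by the proteasome, so their transcript and protein levels need not run in parallel. A myeloma line divides continuously, and its replication genes are transcribed in the share of cells near S phase.

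Some of the promoters hold letters known as the E2F motif. RefSeq promoter sequences (GRCh38.p14, 250 bases before to 50 after a start site) were found for 45 of the 52 genes, and the entries missing were those of CCNE2, CDK2, E2F8, MCM4, MCM5, GINS4 and RPA2. At least 1 of the strings TTTGGCGC, TTTCGCGC and TTTCCCGC, on either strand, was present for 22 of the 45 (48.9%), against 524 of 8966 tested genes with a window (5.84%) and 961 of all 35116 windows (2.74%). By role and among genes with a value, the letters were present for 7 of 9 licensing genes, 9 of 19 fork genes, 4 of 9 control genes and 1 of 5 supply genes. The following 8 stretches are shown because they come from genes on which the comparison turns: MCM6 and GMNN, lower in both CfzR libraries, RFC3, CDC7, MCM3 and TYMS, higher in both, and E2F1 and CDT1, which overlapped between the groups. Capitals mark matches, on the strand of the gene or its complement, and all letters lie upstream of the RefSeq start.
MCM6, chr2:135876506-135876611, minus strand: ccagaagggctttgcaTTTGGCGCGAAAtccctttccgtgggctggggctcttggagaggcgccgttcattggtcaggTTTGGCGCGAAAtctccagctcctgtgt
GMNN, chr6:24775317-24775356, plus strand: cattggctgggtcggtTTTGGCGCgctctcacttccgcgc
RFC3, chr13:33818078-33818117, plus strand: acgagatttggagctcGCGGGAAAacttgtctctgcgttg
CDC7, chr1:91501028-91501101, plus strand: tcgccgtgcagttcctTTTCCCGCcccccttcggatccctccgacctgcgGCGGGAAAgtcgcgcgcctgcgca
MCM3, chr6:52284893-52284932, minus strand: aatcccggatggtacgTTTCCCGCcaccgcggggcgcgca
TYMS, chr18:657598-657637, plus strand: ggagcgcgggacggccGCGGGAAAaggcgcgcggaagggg
E2F1, chr20:33686386-33686421, minus strand: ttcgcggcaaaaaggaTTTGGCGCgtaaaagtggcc
CDT1, chr16:88803738-88803777, plus strand: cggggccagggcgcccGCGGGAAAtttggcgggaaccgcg

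MCM6 held 4 matches, because the string TTTGGCGCGAAA appears at 2 places and is read as overlapping matches on both strands. CDC7 held 1 match on each strand. The CCAAT box, the string CCAAT on either strand, was present for 26 of the 45 genes (57.8%, against 43.5% of tested genes and 34.6% of windows). TTTGAA, the core of the CHR element of later cell cycle genes, was present for 3 of 45 (6.67%, against 13.2% and 15.2%). A match describes letters in this window and is not a bound site. Only the exact E2F strings given above were searched, so a gene without a match may hold another form of the motif.

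The 4 libraries had median values of 7.50 to 7.75 FPKM and sums of 673265 to 955284, lowest in CfzR replicate 1. Sequencing depth is unknown, since FPKM holds no counts. All 10 plasma cell markers of a list had a row, with summed levels of 19740 and 15830 FPKM in WT, against 20380 and 23840 in CfzR, most of it from the immunoglobulin genes IGKC and JCHAIN. By gene, 6 of the 10 had a positive log2 fold change (60%, against 47.1% of all genes). SDC1 (0.29), PRDM1 (0.28) and JCHAIN (0.24) were above WT in both CfzR libraries (30%, against 22.1% of all genes). TNFRSF17 (-0.58) and XBP1 (-0.29) were below WT in both (20%, against 22.6%). Of the markers of other cells, 1 of 7 for B cells had a row (CIITA, 3.32 to 3.90 FPKM), 1 of 8 for T or NK cells, 0 of 7 for myeloid cells and 2 of 11 for stroma, epithelium and blood (summed 7.69 to 8.95). TRAC, the T cell receptor constant gene, stood at 15.9 and 9.90 FPKM in WT, against 29.4 and 27.4 in CfzR. The other 7 genes of its list, CD3D, CD3E and CD3G among them, are not analysed here, and any part of T cell RNA in the results below was not tested.

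Replication genes were well expressed in all 4 libraries. Their median over genes of the mean level was 28.97 FPKM against 10.4 for all genes tested, and 38 of the 49 lay above that second value. RRM2, the small subunit of ribonucleotide reductase, had the highest level of the list, and CCNE2, cyclin E2, the lowest. The levels spanned 0.597 to 489 FPKM, as the plot of levels by library shows.

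**Figure D1:**
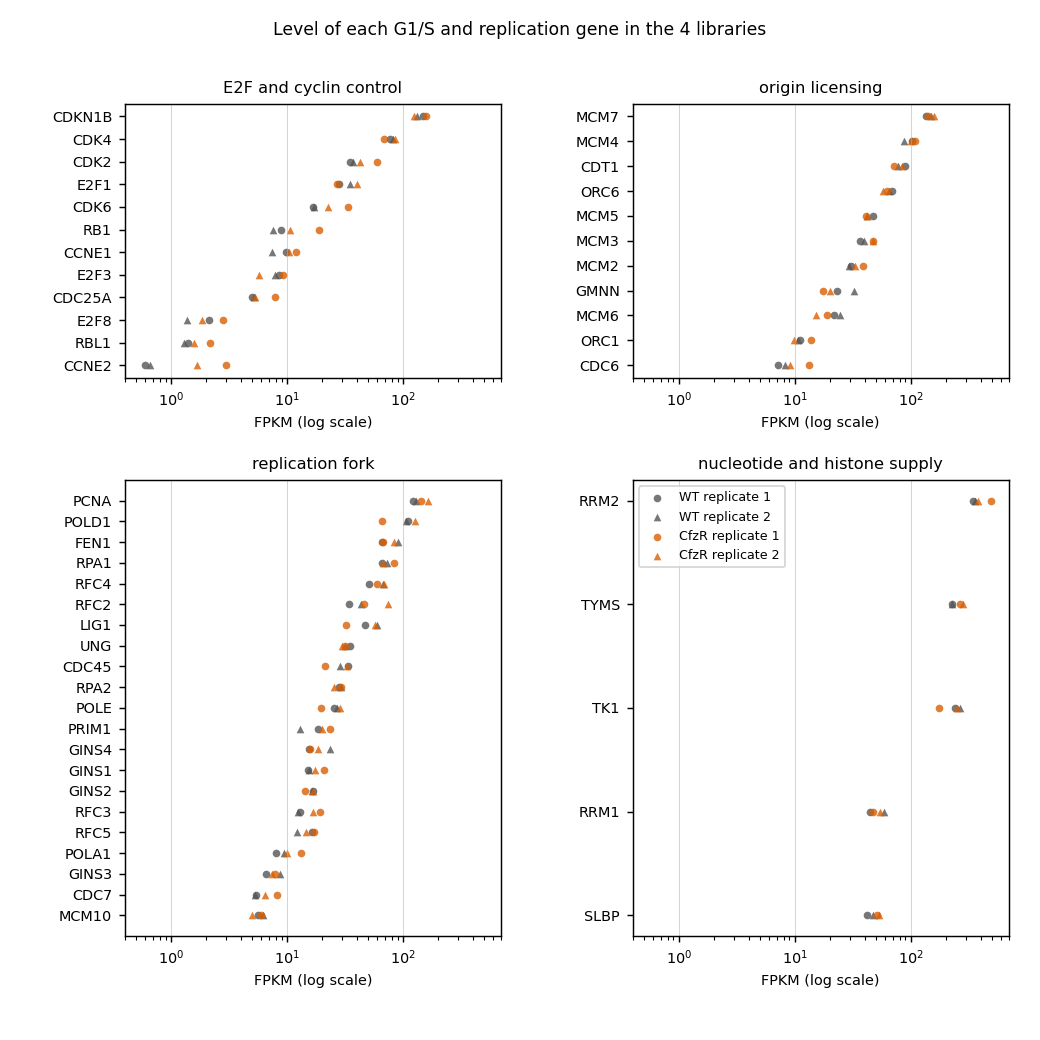
FPKM on a log axis for each of the 49 genes, in 4 panels by role, ordered by mean level; grey symbols are WT and orange symbols CfzR, circles replicate 1 and triangles replicate 2. The 4 points of most genes lie close together compared with the range between genes, and CCNE2 shows the widest relative gap between the groups.

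The comparison of CfzR with WT asks how transcript levels of the resistant cells differ from those of the parental line. No gene of the list passed the threshold of an adjusted p of 0.05 (limma, Benjamini-Hochberg over 13411 genes), in a fit where 0.246% of all genes were called higher and 0.104% lower. Differences were small: 44 of the 49 log2 fold changes were under 0.5 in size, and they ran from -0.53 (GMNN, geminin) to 1.01 (CCNE2). The value of CCNE2, a low gene, depended on the pseudocount, with 1.69 at 0.1 FPKM and 0.38 at 5 FPKM, where CDK6 (0.58) and RB1 (0.56) exceeded it. CCNE2 passed the filter only through CfzR, since its WT mean was 0.626 FPKM. Of the 49, 20 had both CfzR libraries above both WT libraries (40.8%, against 22.1% of all genes) and 4 had both below (8.16%, against 22.6%), while 25 overlapped. The 4 were GMNN, MCM6, ORC6 and UNG.

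The median log2 fold change was 0.10, against -0.02 for all genes, and 30 of 49 genes were positive (61.2%, against 47.1%). Measured from the WT mean, the median was 0.19 in CfzR replicate 1 and 0.12 in CfzR replicate 2, against -0.05 and 0.00 for all genes. In bulk RNA, a different share of cells in S phase and a different level per cell cannot be told apart. At an unadjusted p under 0.05, 4 genes were higher (CCNE2, CDK6, RB1 and RFC3) and 0 lower, beside 5.32% and 5.81% of all genes. Of these, CCNE2 was tested only because of its CfzR level. The 95% interval of the log2 fold change lay between -1 and 1, a 2-fold difference either way, for 42 of the 49, reached 1 or more for 6 and -1 or less for 1.

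The number of genes lower in both CfzR libraries, 4 in the main fit, varied with the scaling. It was 2 with scaling by trimmed means of M-values (23.0% of all genes) and 2 with quantile normalization (21.0%). With 1 library left out, 1 library stands against 2, a rule that more genes meet by construction. Those counts therefore do not compare with the main fit. Without WT replicate 1, 11 genes lay below and 23 above (38.7% and 32.1% of all genes). Without WT replicate 2 they were 7 and 27 (31.0% and 31.8%). With CfzR replicate 1 left out they were 9 and 27 (35.2% and 36.6%), and with CfzR replicate 2 left out 14 and 28 (45.4% and 38.5%). At an unadjusted p under 0.05, 2 genes were higher and 0 lower without WT replicate 1 (3.47% and 5.45% of all genes), and 1 and 0 without WT replicate 2 (3.15% and 2.53%). There were 2 higher and 1 lower with CfzR replicate 1 left out (5.96% and 4.97%), and 10 and 4 with CfzR replicate 2 left out (11.4% and 17.6%). With quantile normalization 7 were higher and 0 lower (5.52% and 5.65%).

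**Figure D2:**
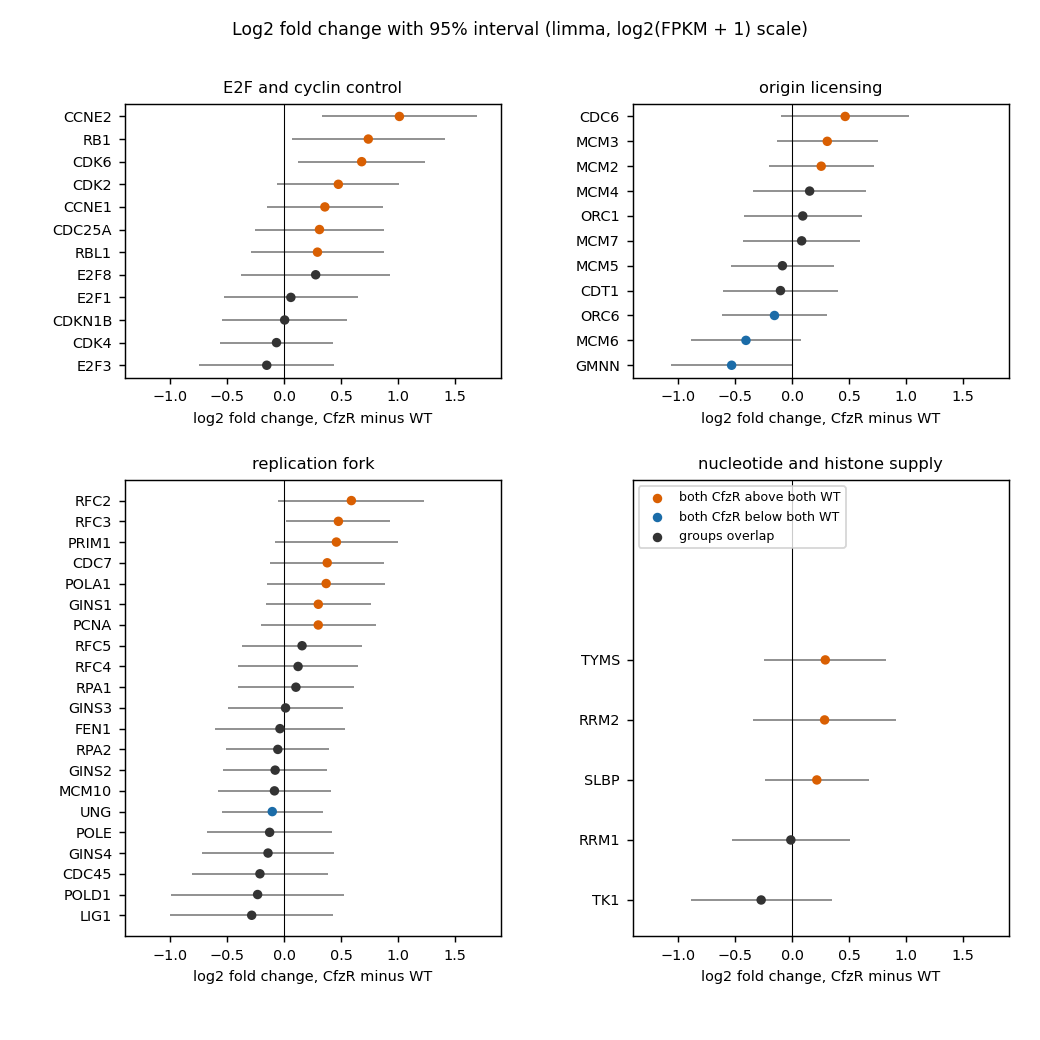
Log2 fold change of each gene, CfzR minus WT on the log2(FPKM + 1) scale, with its 95% interval from limma, in 4 panels by role; orange marks genes with both CfzR libraries above both WT libraries, blue those with both below, black those that overlap. The intervals of 4 genes exclude 0 (CCNE2, RB1, CDK6 and RFC3), and 42 of 49 intervals stay between -1 and 1; of the 4 blue genes, ORC6 has a value of 0.01 with quantile normalization.

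Among the 12 control genes with a value, 10 had a positive log2 fold change (83.3%, against 47.1% of all genes), 7 had both CfzR libraries above WT (58.3%, against 22.1%) and 0 had both below (against 22.6%). Their median was 0.30, but 0.16 with a pseudocount of 5 FPKM, 0.19 without CfzR replicate 1 and 0.47 without CfzR replicate 2. CCNE2, one of the E-type cyclins that activate CDK2, stood at 0.597 and 0.656 FPKM in WT, against 2.99 and 1.68 in CfzR. Both CfzR libraries lay above WT, by a wide margin relative to the WT pair, at a low level. Its WT mean of 0.626 FPKM was under the filter of 1 FPKM, which CCNE2 passed only through CfzR. Without a filter its adjusted p was 0.249 (limma). Its mean was 3.73-fold higher (log2 fold change 1.01 with SE 0.29, unadjusted p = 0.00978, adjusted p = 0.274), the smallest adjusted p of the list. CCNE1, its paralogue, stood at 9.81 and 7.49 FPKM in WT, against 12.1 and 10.5 in CfzR (log2 fold change 0.36, adjusted p = 0.558). Both cyclin E genes were thus above WT in both CfzR libraries, and CCNE1 remained the more abundant. The ratio of CCNE1 to CCNE2 in FPKM was 16.4 and 11.4 in WT and 4.03 and 6.25 in CfzR.

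CDK2, the kinase that cyclin E activates, had levels of 34.7 and 37.3 FPKM in WT, against 59.5 and 42.6 in CfzR (log2 fold change 0.47 with SE 0.23, adjusted p = 0.492). CDK6, a cyclin D kinase at chr7:92604921-92836594, had 16.8 and 17.2 FPKM in WT, against 33.9 and 22.7 in CfzR (1.67-fold, log2 fold change 0.68 with SE 0.24, unadjusted p = 0.0238, adjusted p = 0.362). Both kinases were higher in each CfzR library, more so in replicate 1. CDK4, the other cyclin D kinase, overlapped, with 78.0 and 82.6 FPKM in WT, against 69.0 and 84.7 in CfzR, and its log2 fold change of -0.07 was 0.09 with quantile normalization and 0.03 after correction for transcript length and GC share. The ratio of CDK4 to CDK6 was 4.65 and 4.81 in WT against 2.04 and 3.73 in CfzR, so CDK6 made up a larger part of the pair in both CfzR libraries. CDKN1B, the CDK inhibitor p27, differed by less than its spread: 149 and 132 FPKM in WT, 159 and 124.5 in CfzR (log2 fold change 0.00). Relative to CDK2 its ratio was 4.31 and 3.55 in WT and 2.68 and 2.92 in CfzR.

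RB1, at chr13:48303726-48599436, restrains E2F until it is phosphorylated. It stood at 8.80 and 7.55 FPKM in WT, against 19.0 and 10.7 in CfzR (1.81-fold, log2 fold change 0.74 with SE 0.28, unadjusted p = 0.0360, adjusted p = 0.412). Both CfzR libraries were above WT, but replicate 1 was 1.12 above the WT mean on the log2 scale and replicate 2 was 0.35 above it. For CDK6 the same differences were 0.96 and 0.40. RBL1, the related pocket protein p107, had a log2 fold change of 0.29 with groups that did not overlap. The activator E2F1 overlapped between the groups, at 28.2 and 34.9 FPKM in WT, against 26.8 and 39.8 in CfzR (log2 fold change 0.06). Its ratio to RB1 was 3.21 and 4.61 in WT and 1.41 and 3.74 in CfzR, lowest in CfzR replicate 1 and overlapping through replicate 2.

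E2F3, another activator, was at 8.61 and 7.90 FPKM in WT and on both sides of these in CfzR, at 9.19 and 5.77 (log2 fold change -0.15). E2F8, an atypical E2F that represses S phase genes, was low throughout, at 2.15 and 1.37 FPKM in WT, against 2.83 and 1.86 in CfzR (log2 fold change 0.27). CDC25A, the phosphatase that removes inhibitory phosphates from CDK2, had 4.96 and 5.21 FPKM in WT, against 7.96 and 5.32 in CfzR (log2 fold change 0.31, adjusted p = 0.640). Its groups did not overlap, yet CfzR replicate 2 was 0.06 above the WT mean and replicate 1 was 0.56 above it.

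The 11 licensing genes were divided. Of them 6 had a positive log2 fold change (54.5%), 3 had both CfzR libraries above WT (CDC6, MCM2 and MCM3) and 3 had both below (GMNN, MCM6 and ORC6), each 27.3% beside 22.1% and 22.6% of all genes. Their median was 0.08, with 0.10 under quantile normalization and 0.11 after length and GC correction. With 1 library left out it ran from -0.0096 without CfzR replicate 2 through 0.01 without WT replicate 1 or CfzR replicate 1 to 0.04 without WT replicate 2. GMNN, at chr6:24774931-24786099, encodes geminin, which binds CDT1 and prevents origins from being licensed again in S phase. It stood at 23.3 and 32.4 FPKM in WT, against 17.4 and 20.1 in CfzR, with a log2 fold change of -0.53 (SE 0.23, unadjusted p = 0.0514, adjusted p = 0.451), the most negative of the list. Its WT mean was 1.49 times its CfzR mean. CDT1, the loader that geminin binds, overlapped at 90.0 and 77.6 FPKM in WT, against 71.7 and 84.4 in CfzR (log2 fold change -0.10, but 0.06 with quantile normalization and 0.02 after length and GC correction). The ratio of CDT1 to GMNN was 3.87 and 2.39 in WT and 4.12 and 4.20 in CfzR, so WT replicate 1 was near the CfzR libraries and WT replicate 2 was lower.

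CDC6, which acts with CDT1 to load the helicase, had 7.11 and 8.26 FPKM in WT, against 13.2 and 9.06 in CfzR (log2 fold change 0.46 with SE 0.24, adjusted p = 0.508). ORC1, a subunit of the origin recognition complex, overlapped at 11.0 and 10.7 FPKM in WT, against 13.7 and 9.88 in CfzR (log2 fold change 0.09). ORC6, another subunit, was at 69.3 and 64.9 FPKM in WT, against 62.5 and 57.9 in CfzR. Both CfzR libraries were below WT for ORC6, with a log2 fold change of -0.16 (adjusted p = 0.763) that was 0.01 with quantile normalization.

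The 6 subunits of the MCM2-7 helicase form a ring with 1 copy of each, and their transcripts did not all lie on the same side of WT. MCM6, at chr2:135839626-135876426, had 21.6 and 24.5 FPKM in WT, against 19.1 and 15.3 in CfzR (log2 fold change -0.41 with SE 0.20, unadjusted p = 0.0880, adjusted p = 0.506), with groups that did not overlap. MCM3 lay on the other side, at 36.7 and 39.3 FPKM in WT, against 47.4 and 47.1 in CfzR (log2 fold change 0.31, adjusted p = 0.559), and the CfzR pair was close together. MCM2 was at 30.4 and 29.4 FPKM in WT, against 39.1 and 32.9 in CfzR (log2 fold change 0.25). Neither difference passed the test.

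The remaining subunits overlapped. MCM4 was at 102 and 87.5 FPKM in WT, against 109.8 and 101 in CfzR (log2 fold change 0.15). MCM5 was at 47.0 and 41.6 FPKM in WT, against 41.3 and 41.8 in CfzR (log2 fold change -0.09, but 0.03 with quantile normalization). MCM7, the most abundant subunit, was at 134 and 148 FPKM in WT, against 140.3 and 159.7 in CfzR (log2 fold change 0.08). From high to low, both WT libraries had the order MCM7, MCM4, MCM5, MCM3, MCM2, MCM6. In both CfzR libraries MCM3 stood above MCM5 and the order was otherwise the same. The ratio of MCM7 to MCM6, the ends of that order, was 6.22 and 6.07 in WT and 7.35 and 10.4 in CfzR.

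Among fork genes, 11 of 21 had a positive log2 fold change (52.4%), 7 had both CfzR libraries above WT (33.3%, against 22.1% of all genes) and 1 had both below (4.76%, against 22.6%). Their median of 0.01 depended on the setting, with 0.11 under quantile normalization, 0.05 after length and GC correction, -0.07 without WT replicate 1, 0.17 without WT replicate 2, 0.12 without CfzR replicate 1 and 0.04 without CfzR replicate 2. CDC7, the kinase that fires licensed origins, had 5.39 and 5.32 FPKM in WT, against 8.19 and 6.41 in CfzR (log2 fold change 0.38 with SE 0.21, adjusted p = 0.538). CDC45, a partner of the active helicase, was at 33.3 and 28.5 FPKM in WT, against 21.2 and 32.9 in CfzR (log2 fold change -0.21). The groups overlapped for CDC45, with CfzR replicate 1 the lowest of the 4 libraries. Of the 4 GINS subunits, which complete that helicase, GINS1 alone had both CfzR libraries above WT (log2 fold change 0.30). GINS2 and GINS4 overlapped with values of -0.08 and -0.14, as did GINS3 with 0.01, which was -0.05 after length and GC correction. MCM10, which helps activate the helicase, overlapped as well (log2 fold change -0.09). GINS4 by library was at 15.5 and 23.6 FPKM in WT, against 15.9 and 18.6 in CfzR, inside the range of the WT pair.

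DNA synthesis starts with polymerase alpha and primase. POLA1, the catalytic subunit of polymerase alpha, had 8.04 and 9.39 FPKM in WT, against 13.2 and 10.0 in CfzR (log2 fold change 0.37 with SE 0.22, adjusted p = 0.554). PRIM1, the primase subunit that makes the RNA primer, had 18.3 and 13.1 FPKM in WT, against 23.6 and 19.9 in CfzR (log2 fold change 0.46 with SE 0.23, adjusted p = 0.505). Both were above WT in each CfzR library. For POLD1 and POLE, of the polymerases that take over, the groups overlapped. POLD1, the lagging strand polymerase, was at 110.1 and 105 FPKM in WT, against 65.7 and 127 in CfzR. The CfzR values of POLD1 lay on either side of WT, 0.94 apart on the log2 scale, the widest gap between the CfzR libraries on the list, and its log2 fold change of -0.23 had an interval of -0.99 to 0.52. POLE, the leading strand polymerase, showed the same arrangement, at 25.3 and 27.0 FPKM in WT, against 19.7 and 28.8 in CfzR (log2 fold change -0.13). Further subunits of these enzymes, from the other fork genes described below, did not follow that division. POLA2 (-0.28) and PRIM2 (0.01) overlapped, as did POLD4 (-0.20), POLE3 (-0.10) and POLE4 (-0.19). POLD3 (0.31) and POLE2 (0.185) were above WT in both CfzR libraries, and POLD2 (-0.26) was below in both.

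PCNA, the sliding clamp, was at 122 and 129 FPKM in WT, against 144 and 164 in CfzR (log2 fold change 0.30 with SE 0.21, adjusted p = 0.611), with both CfzR libraries higher. The RFC complex loads this clamp, and all 4 of its subunits on the list had positive values. RFC1, from the other fork genes described below, had 0.09, with groups separated only narrowly (11.17 against 11.26 FPKM). RFC2 was at 34.6 and 43.2 FPKM in WT, against 46.3 and 74.0 in CfzR (1.55-fold, log2 fold change 0.59 with SE 0.27, unadjusted p = 0.0667, adjusted p = 0.485). RFC3, at chr13:33818049-33966558, was at 13.0 and 12.4 FPKM in WT, against 19.4 and 16.7 in CfzR (1.42-fold, log2 fold change 0.47 with SE 0.19, unadjusted p = 0.0436, adjusted p = 0.430). RFC4 and RFC5 overlapped, with log2 fold changes of 0.12 and 0.15 that reached -0.07 and -0.05 with 1 library left out (WT replicate 1 for RFC4, WT replicate 2 for RFC5). RFC2 stood above RFC4 in CfzR replicate 2 only, while RFC4 led the complex in the other 3 libraries.

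Genes of Okazaki fragment joining overlapped between the groups. LIG1, the DNA ligase of replication, was at 46.6 and 60.1 FPKM in WT, against 32.4 and 57.5 in CfzR (log2 fold change -0.29 with SE 0.30), where CfzR replicate 2 lay within the WT range. FEN1, the flap nuclease, had a log2 fold change of -0.04, which was 0.11 with quantile normalization. Of the single-strand binding complex, RPA1 was at 66.6 and 73.1 FPKM in WT, against 84.0 and 66.8 in CfzR (log2 fold change 0.10), and RPA2 had -0.06, or 0.02 with quantile normalization. UNG, which removes uracil from DNA, was at 34.7 and 31.9 FPKM in WT, against 31.9 and 29.9 in CfzR. Its groups were separated only narrowly (31.91 against 31.86 FPKM), and the log2 fold change was -0.11 (adjusted p = 0.834).

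Supply genes held the 3 highest mean levels of the list (RRM2, TYMS and TK1). Of the 5, 3 had both CfzR libraries above WT (60%, against 22.1% of all genes) and 0 both below (against 22.6%). Their median of 0.22 was 0.34 with quantile normalization, 0.13 without WT replicate 1 and 0.0965 without CfzR replicate 1. RRM2, the S phase subunit of the reductase that makes deoxynucleotides, was at 344 and 361 FPKM in WT, against 489 and 377 in CfzR (log2 fold change 0.28 with SE 0.26, adjusted p = 0.688). RRM1, the large subunit, overlapped at 44.9 and 58.3 FPKM in WT, against 47.1 and 54.6 in CfzR (log2 fold change -0.01, but 0.12 with quantile normalization). The ratio of RRM2 to RRM1 was 7.68 and 6.20 in WT and 10.4 and 6.91 in CfzR, which overlapped. TYMS, thymidylate synthase, was at 226 and 225 FPKM in WT, against 267 and 285 in CfzR (log2 fold change 0.29 with SE 0.23, adjusted p = 0.642). TK1, the thymidine kinase that recycles the nucleoside, had 242 and 264 FPKM in WT, against 176 and 249 in CfzR (log2 fold change -0.27). The ratio of TYMS, the route of new synthesis, to TK1, the route of salvage, was 0.931 and 0.853 in WT and 1.52 and 1.14 in CfzR. SLBP, which binds the stem-loop of histone mRNA, was at 41.8 and 47.1 FPKM in WT, against 50.7 and 52.7 in CfzR (log2 fold change 0.22, adjusted p = 0.680).

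**Figure D3:**
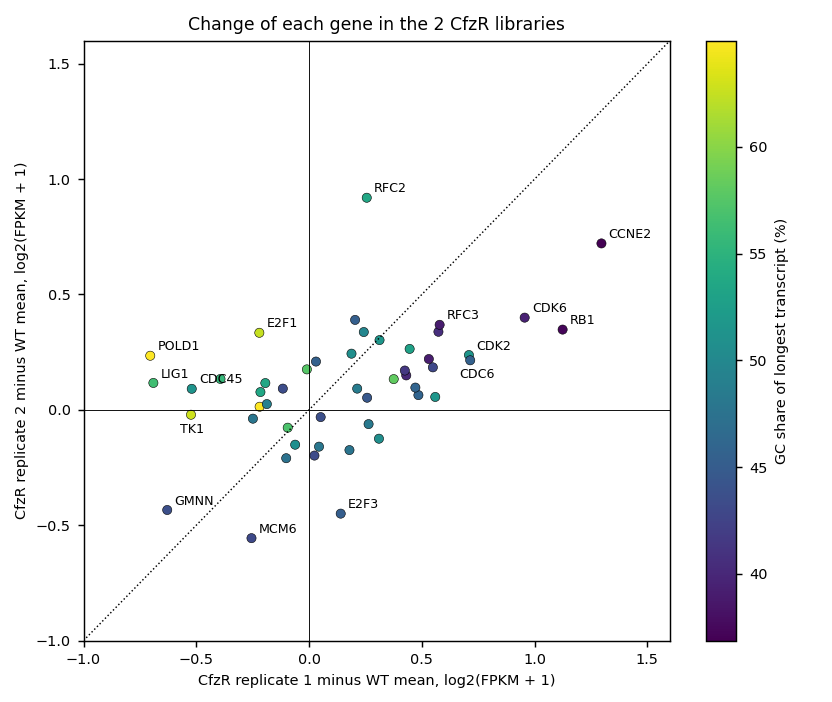
Each of the 49 genes by its difference from the WT mean in CfzR replicate 1 (horizontal) and in CfzR replicate 2 (vertical), both in log2(FPKM + 1), coloured by the GC share of the longest transcript in percent; the dotted line marks equal differences. CCNE2, RB1 and CDK6 lie far right and dark (low GC), POLD1 lies left of 0 in replicate 1 and above 0 in replicate 2, and RFC2 is the highest point for replicate 2.

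The gap between the 2 CfzR libraries varied with transcript composition. The difference between CfzR replicates 1 and 2 had a Spearman correlation across genes of -0.60 with the GC share of the longest transcript over the 49 genes (-0.35 over 12896 genes with a value) and of 0.43 with its length (0.47 over all). Between the WT libraries the same values over the 49 genes were -0.07 and 0.04. These are descriptions across genes, which share libraries and are not independent replicates. In CfzR replicate 1, 31 of the 49 genes lay above the WT mean, against 6214 of all 13411 genes. In CfzR replicate 2 the counts were 35 of 49 and 6723 of 13411.

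The log2 fold change itself had a Spearman correlation with GC share of -0.40 over the 49 genes (-0.30 over all). Over all genes tested, not split by GC share, the median log2 fold change was -0.02 and 22.1% had both CfzR libraries above WT. The 25 genes with the lower GC shares had a median log2 fold change of 0.27, with 12 genes above WT in both CfzR libraries. The 24 with the higher GC shares had a median of 0.07, with 8 above. In CfzR replicate 1 the medians of these sets were 0.26 and -0.04, and in CfzR replicate 2 they were 0.10 and 0.12. The low-GC genes CCNE2 (36.9%), RB1 (37.3%), CDK6 (39.5%) and RFC3 (39.1%) are the 4 with an unadjusted p under 0.05, and POLD1 (65.0%) and LIG1 (56.4%) were low in CfzR replicate 1 alone. After correction of each library for length and GC share, 32 of 49 genes were positive, 21 had both CfzR libraries above WT (23.4% of all genes) and 3 both below (23.8%), and 0 passed the threshold, with a smallest adjusted p of 0.213 for RFC2. With the correction the log2 fold changes of CCNE2, RB1 and CDK6 were smaller than in the main fit (0.82, 0.53 and 0.50). Those of CCNE1 and CDK2 were larger (0.45 and 0.52). The part of library composition in single differences was not tested beyond this correction.

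Genes with and without the E2F letters in the promoter window overlapped in their differences. Over all genes tested, 47.1% were positive, 22.1% had both CfzR libraries above WT and 22.6% both below. Of 21 genes with a match and a value, 14 were positive, 11 had both CfzR libraries above WT and 2 both below, with a median of 0.25. Of 21 without a match, 12 were positive, 7 above and 2 below, with a median of 0.09. Other forms of the motif were not searched, so this second set is not a set of genes without E2F sites. The most positive genes with a window, RB1, CDK6 and RFC2, had no match, and the most negative pair, GMNN and MCM6, had matches. The ranges overlapped, from -0.53 to 0.47 with a match and from -0.27 to 0.74 without, and no test was made of the difference.

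Other genes of the same steps were read from 4 textbook lists with 105 genes, of which 100 were tested and 0 were called. Of these 100, 59 were positive (47.1% of all genes), with 29 above WT in both CfzR libraries (against 22.1%) and 16 below (against 22.6%) and a median of 0.05. At an unadjusted p under 0.05, 4 were higher and 3 lower, shares below the 5.32% and 5.81% of all genes, so these 7 are named as values only. DBF4, the activating subunit of the CDC7 kinase, had the largest difference, from 26.4 and 26.8 FPKM in WT to 63.5 and 52.8 in CfzR (2.18-fold, log2 fold change 1.09 with SE 0.20, adjusted p = 0.111). The ratio of DBF4 to CDC7 was 4.90 and 5.04 in WT and 7.75 and 8.24 in CfzR. E2F7, the partner of E2F8, had the largest positive value of the other control genes, at 3.50 and 3.26 FPKM in WT, against 8.19 and 6.10 in CfzR (log2 fold change 0.88, adjusted p = 0.222). CUL1, the scaffold of the SCF ubiquitin ligase, had the most negative, at 47.1 and 48.9 FPKM in WT, against 34.8 and 28.9 in CfzR (log2 fold change -0.58, adjusted p = 0.350).

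The other genes with an unadjusted p under 0.05 were TFDP2, a dimer partner of E2F (log2 fold change 0.85), DCK, deoxycytidine kinase (0.78), CCND3, cyclin D3 (-0.56), and IMPDH2, the enzyme of guanine nucleotide synthesis (-0.87). DCK and IMPDH2 were the extremes of the supply list. DCK was at 23.5 and 22.5 FPKM in WT, against 48.9 and 33.1 in CfzR, and IMPDH2 at 246 and 354 in WT and 129.8 and 199 in CfzR. At the fork the extremes were RNASEH2B, a subunit of ribonuclease H2 (0.45), and CHTF18, of the alternative clamp loader (-0.66). MCMBP, a binding partner of MCM proteins, had the most negative value of the licensing list (-0.35). None passed the test.

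**Figure D4:**
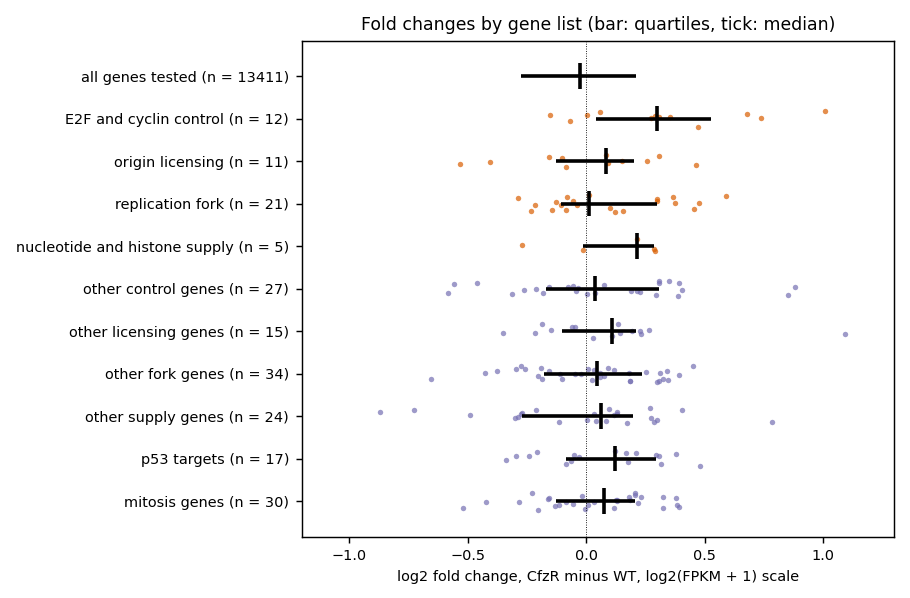
Log2 fold changes (CfzR minus WT, log2(FPKM + 1) scale) by gene list; each point is a gene, the thick bar spans the quartiles and the tick is the median, and the top row gives quartiles and median for all 13411 genes without points. Medians run from 0.01 (replication fork) to 0.30 (E2F and cyclin control), and the quartile bars of all lists overlap that of all genes.

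Programmes next to S phase entry were read from the same fit. The shares over all genes were 47.1% positive, 22.1% above and 22.6% below. Of 17 tested targets of p53, which arrests cells in G1, 9 were positive (52.9%), 7 were above WT in both CfzR libraries (41.2%) and 3 below (17.6%), with a median of 0.12 and 0 called. They ran from GADD45A, a stress gene (0.48), to AEN, a nuclease (-0.34). Of 30 mitosis genes, 17 were positive (56.7%), 10 above (33.3%) and 5 below (16.7%), with a median of 0.07 and 0 called. The extremes were BUB1B, a spindle checkpoint kinase (0.39), and CENPE, a kinetochore motor (-0.52).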

How the data were processed

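The authors deposited 1 table of FPKM values for 15201 Ensembl gene IDs, with 1 column per library. The tools were STAR and Cufflinks, per the submitters' processing notes; versions, build, annotation and use of strand: not given in the sources used here. Columns named for the drug were taken as CfzR, and those named for a control as WT, the only other group. FPKM values hold no read counts, so depth is unknown.

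Symbols were matched by ID (13174 genes). Positions, transcript length and GC share come from GENCODE release 29 (GRCh38), and promoters from RefSeq (GRCh38.p14). Values were transformed to log2(FPKM + 1), a scale that understates differences of low genes, and genes averaging 1 FPKM or more were tested in R 4.3.3 with limma 3.58.1 (two-sided, lmFit followed by eBayes with its trend option, Benjamini-Hochberg over 13411 genes, threshold 0.05). The procedure was tested on simulated data with planted differences larger than any in the list. That simulation therefore does not show how often differences of the size found here would be called. Plain folds are ratios of mean FPKM. Since separate cultures are not stated, p-values reflect the spread of these libraries alone and possibly technical error. Permuting 2 libraries against 2 cannot give a p under the threshold.

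The members and lists were chosen with earlier results of these data known. Values per library are given for the 12 most positive and the 12 most negative members and for a written set of main regulators, and every other member by its log2 fold change. Of each other list, the extremes are named, with further polymerase and RFC subunits. Genes with an unadjusted p under 0.05, these subunits and the ratios were picked after their values were seen. Alternatives were pseudocounts of 0.1 and 5 FPKM, no filter, a filter at 5 FPKM, trimmed means of M-values, quantile normalization, no trend, the replicate block, a length and GC correction (splines with 4 degrees of freedom), a threshold of 0.1 and leaving out each library.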

Additional observations from a re-analysis of the deposited data

How the results depend on the processing

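With the replicate block, 487 of all 13411 genes were called higher and 755 lower. No member passed the threshold under any alternative except that block, where 3 of 49 were called higher (CCNE2, limma adjusted p 0.0140, RB1, 0.0163, and CDK6, 0.0219). The smallest adjusted p of the list was 0.0140 with that block. In the other settings that kept all libraries it ran from 0.213 (length and GC correction) to 0.379 (filter at 5 FPKM). The labels share only a replicate number, the correlation across genes of the 2 pair differences was 0.25, and the block leaves few degrees of freedom. Genes called over the whole table numbered 47, against 1242 with the replicate block, 27 with a filter at 5 FPKM, 96 at an adjusted p of 0.1 and 16 to 260 with 1 library left out. The members' median log2 fold change of 0.10 was 0.22 with quantile normalization, where 36 of 49 were positive, and 0.0899 to 0.19 with 1 library left out. Members past the threshold with 1 library left out numbered 0. Of 634 member values under an alternative, 591 kept direction and call, 40 had the other sign and 3 passed the threshold. The sign held throughout for 26 members, and no member with a size above 0.29 lost it.

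The sign differed with trimmed means for RRM1 (0.0011), with quantile normalization for CDK4 (0.0856), CDT1 (0.0628), ORC6 (0.0098), MCM5 (0.0306), GINS3 (-0.0045), FEN1 (0.11), RPA2 (0.0213) and RRM1 (0.12), and with the length and GC correction for CDK4 (0.0344), CDT1 (0.0229), GINS3 (-0.0529) and FEN1 (0.0528). The cause was not tested. With 1 library left out, log2 fold changes ran from -0.17 to 0.18 for CDKN1B, -0.22 to 0.33 for E2F1, -0.45 to 0.14 for E2F3, -0.22 to 0.0771 for CDK4, -0.22 to 0.0134 for CDT1, -0.13 to 0.31 for ORC1, -0.0096 to 0.18 for MCM7, -0.20 to 0.0239 for MCM10, -0.52 to 0.0911 for CDC45, -0.19 to 0.025 for GINS2, -0.16 to 0.18 for GINS3, -0.43 to 0.14 for GINS4, -0.70 to 0.23 for POLD1, -0.39 to 0.13 for POLE, -0.0714 to 0.31 for RFC4, -0.0508 to 0.36 for RFC5, -0.26 to 0.18 for FEN1, -0.69 to 0.12 for LIG1, -0.0618 to 0.26 for RPA1, -0.16 to 0.0442 for RPA2 and -0.20 to 0.17 for RRM1. A library left alone in its group is assumed to vary like the other group.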

Other observations

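DBF4, which had the largest difference among the other genes of these steps, lies at chr7:87876216-87909541, 0.163 Mb from ABCB1 (chr7:87503633-87713323), the drug efflux pump gene with a log2 fold change of 7.01 (limma adjusted p = 5.15e-05). Members on the same chromosome were CDK6, 4.89 Mb from ABCB1, with a log2 fold change of 0.68 (adjusted p = 0.362), MCM7, 12.4 Mb away, with 0.08 (adjusted p = 0.892), and RFC2, 13.2 Mb away, with 0.59 (adjusted p = 0.485). These genes were picked after their values were seen, positions are those of GENCODE release 29, and a link between position and level was not tested.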
